A study of Homo sapiens with 8 samples.

Results

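SLC16A1 and LDHA, the genes of the lactate transporter MCT1 and of the A subunit of lactate dehydrogenase, were taken by symbol from a table of 3666 genes, of which they are 2. The table came from MIA PaCa-2 cells, an established line of human pancreatic ductal adenocarcinoma labelled as wild type. The cells had been loaded briefly with lactate, washed and sorted into a fraction of low (PHLac-low) and a fraction of high (PHLac-high) permeability to lactic acid, the study's readout of metabolic rate. Both fractions came from the same untreated culture conditions: RPMI with 10% FBS, GlutaMAX, sodium pyruvate and antibiotics, at 5% CO2 and 44 mM bicarbonate. The sort was run in 4 repeats, each giving 1 library per fraction, so there were 2 groups of 4 libraries paired by repeat. One cell line was used, and the labels do not say whether the repeats were separate cultures, so p-values measure the spread between these libraries.

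MCT1 carries lactate across the plasma membrane together with a proton, in either direction, down the combined gradient. Lactate dehydrogenase interconverts pyruvate and lactate and regenerates the NAD+ that glycolysis consumes. Cells with high glycolytic flux make lactic acid with the enzyme and export it through the transporter, and both genes are known targets of MYC, while LDHA is also a classical target of the hypoxia inducible factor HIF-1.

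Every gene in the table had passed the authors' own test between the fractions at an adjusted p of at most 0.05. Values are normalised counts, which are read counts divided by a size factor for each library. Reads in the listed genes numbered from 8979276 to 23176205 per library, and size factors ranged from 0.755 to 2.09, with the PHLac-low library of repeat 3 the deepest. SLC16A1 rested on 5476 to 14149 reads per library and LDHA on 13866 to 49384. Of 18 marker genes of epithelial, mesenchymal, fibroblast, blood and endothelial cells, 4 were listed. KRT19, a keratin of ductal epithelium, averaged 17367 ± 3619 normalised counts (PHLac-low) and 20360 ± 3930 (PHLac-high, SD, n = 4). COL1A1, a fibroblast collagen, averaged 137 ± 56.6 and 85.0 ± 29.2, PTPRC, a leukocyte phosphatase, 262 ± 107 and 103 ± 43.4, and CD68, a lysosomal protein of macrophages, 1428 ± 413 and 2189 ± 942 (SD, n = 4). Summed, these last 3 ranged from 1307 to 2158 in PHLac-low and from 1296 to 3471 in PHLac-high. No listed marker was at 0. All 4 passed a limma test between repeats, beside 57.6% of listed genes. Without repeat 1 it was 1 of the 4, beside 1892 of the 3666 listed genes. The repeat took 70.1% of the variance of KRT19, 63.1% of COL1A1, 33.3% of PTPRC and 70.4% of CD68. Its median share over the listed genes was 42.0%. None of the 4 markers had the order of repeats described for LDHA, which only 9.63% of listed genes had. The part of other cells in the results on SLC16A1 and LDHA was not tested, and the other 14 markers were not analysed here.

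LDHA lies on the plus strand of chromosome 11 (chr11:18394388-18408425, GRCh38, GENCODE release 29), and its longest principal transcript has 8 exons. SLC16A1 lies on the minus strand of chromosome 1 (chr1:112911847-112957013) and its longest principal transcript has 5. SLC16A1 overlaps the antisense gene SLC16A1-AS1 over 599 bases and the pseudogene AKR7A2P1 over 915, neither of which was listed. LDHA contains the intronic gene AC084117.1 over 1123 bases, on the same strand and also not listed. Libraries were strand-specific, but whether counting used the strand is not given in the sources used here. GENCODE names 6 pseudogenes of LDHA and 1 of SLC16A1, so some reads of near-identical sequence could have been divided among copies.

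RefSeq (GRCh38.p14) holds 2 promoter windows for LDHA, each from 250 bases before to 50 after an RNA start. The first holds motifs known from LDHA regulation, which are shown in 30-base stretches. Whether they bear on the levels of LDHA in these libraries was not tested. Capitals mark CACGTG, the E-box bound by MYC and MAX, in the first pair of stretches, and TGACGTCA, the cAMP response element, in the last.
E-box at chr11:18394366-18394395: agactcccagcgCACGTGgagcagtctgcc
E-box at chr11:18394464-18394493: cagcccgactcaCACGTGggttcccgcacg
cAMP response element at chr11:18394501-18394530: gccccccccgcTGACGTCAgcatagctgtt
Counted from the RNA start at position 18394563, the motifs begin at -185, -87 and -51. Each CACGTG contains ACGTG, the core bound by hypoxia inducible factors, on both strands, and a further ACGTG lies at -73 on the opposite strand. Searched on both strands, CACGTG was found in 7.26% of 35116 windows of this length, ACGTG in 21.4% and TGACGTCA in 1.85%. Matches of letters are a description and not evidence of binding. The table has no entry for SLC16A1.

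SLC16A1 followed the sorted fraction. In PHLac-low its normalised counts were 6718, 6740, 6785 and 7193 in repeats 1 to 4, and in PHLac-high they were 8610, 8557, 9041 and 10207. The lowest PHLac-high library was above the highest PHLac-low library, so the groups did not overlap. The means were 6859 ± 224 and 9104 ± 766 (SD, n = 4). Of all listed genes, 36.7% had groups without overlap. The ratio of PHLac-high to PHLac-low within a repeat was 1.28, 1.27, 1.33 and 1.42, higher in 4 of 4 repeats. Of the listed genes, 96.1% moved the same way in all 4 repeats. The mean change was 0.41 ± 0.05 on the log2(normalised count + 1) scale (SE, limma with the repeat as a block, adjusted p = 0.00037). In this test 99.9% of the listed genes passed, as the table had been selected for this difference, so passing carries no information about SLC16A1. In sorted bulk samples, a change in the share of cells that hold a transcript and a change in the amount per cell cannot be told apart.

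LDHA followed the repeat. Its normalised counts were 24598, 17067, 14028 and 43707 in PHLac-low and 34213, 23822, 18303 and 65383 in PHLac-high, in repeats 1 to 4. Repeat 4 was the highest and repeat 3 the lowest in both fractions (repeat 4 had the highest mean in 36.4% of listed genes), and the groups overlapped widely: the PHLac-low library of repeat 4 was above the PHLac-high libraries of the other 3 repeats. The means were 24850 ± 13333 and 35430 ± 21030 (SD, n = 4). Within each repeat PHLac-high was higher, by a ratio of 1.39, 1.40, 1.30 and 1.50. The mean change was 0.48 ± 0.05 (SE, log2 scale, limma with the repeat as a block, adjusted p = 0.000181). Without the block the SE was 0.43 and the change did not pass (limma adjusted p = 0.308), while that of SLC16A1 did (adjusted p = 0.0185). That fit leaves out the pairing by repeat, and 1135 of the 3666 listed genes passed it.

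**Figure D1:**
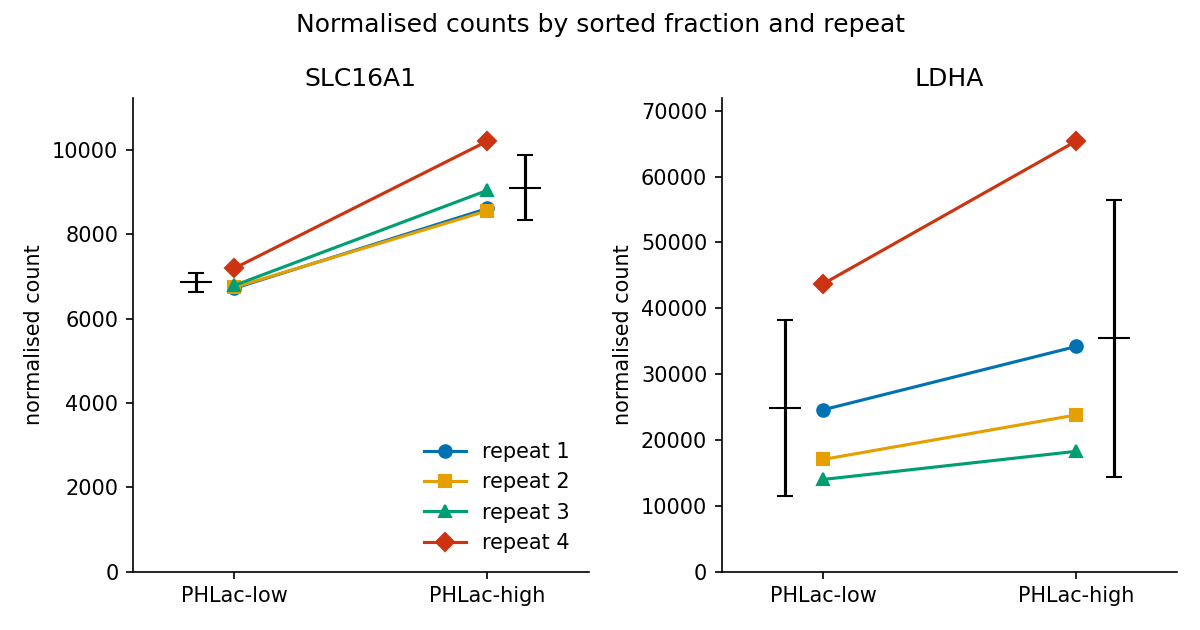
Normalised counts (linear axis from 0) of SLC16A1 (left) and LDHA (right) in the PHLac-low and PHLac-high libraries, with a line joining the libraries of a repeat and black bars for the mean ± SD of 4 libraries. The SLC16A1 groups are separate, at 6718 to 7193 and 8557 to 10207, while the LDHA lines rise in all 4 repeats from starting levels between 14028 and 43707.

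In the authors' deposited table the log2 change was 0.41 for SLC16A1 (adjusted p = 1.53e-07) and 0.48 for LDHA (adjusted p = 5.79e-11). Ordered by that p, the authors' deposited table places LDHA at rank 319 and SLC16A1 at rank 591. With the authors' size factors the median change of the listed genes was 0.25. SLC16A1 lay 0.16 and LDHA 0.24 above it on the log2 scale, at percentiles 73.5 and 79.0. Upper-quartile scaling over this table brought the median to 0.02 and the changes to 0.18 and 0.26. As a share of all reads in the listed genes, SLC16A1 took from 0.0598% to 0.0610% in PHLac-low and from 0.0650% to 0.0701% in PHLac-high, again without overlap. LDHA took from 0.126% to 0.363% and from 0.142% to 0.440%.

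Counting error was small beside these changes. For SLC16A1 the within-repeat log2 changes with 95% counting intervals were 0.36 (0.31 to 0.40), 0.34 (0.30 to 0.39), 0.41 (0.37 to 0.45) and 0.50 (0.46 to 0.55). For LDHA they were 0.48 (0.45 to 0.50), 0.48 (0.45 to 0.51), 0.38 (0.36 to 0.41) and 0.58 (0.56 to 0.60). With the authors' size factors both genes thus changed most in repeat 4. There the interval lay above those of repeats 1 to 3 for each gene. As a share of reads in the listed genes, SLC16A1 went from 0.0610% to 0.0701% in repeat 3 and from 0.0598% to 0.0687% in repeat 4. Intervals cover counting error only, since PCR copies are not independent molecules, and leave out any error of the size factors. The SD of the change over the 4 repeats was 0.073 for SLC16A1 and 0.081 for LDHA, against a largest counting SE of 0.025 and 0.015.

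The change of LDHA exceeded that of SLC16A1 in 3 of 4 repeats, by 0.12, 0.14 and 0.08 in repeats 1, 2 and 4, and was 0.03 smaller in repeat 3. The mean difference of 0.075 ± 0.075 (SD, n = 4, log2 scale) did not pass an exact two-sided sign-flip permutation test (p = 0.25), and the smallest p that 4 pairs allow is 0.13 when rounded.

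The variance of each gene over the 8 libraries was divided between fraction, repeat and a remainder, on the log2 scale. For SLC16A1 the fraction took 87.2%, the repeat 10.7% and the remainder 2.11%. For LDHA the fraction took 11.8%, the repeat 88.0% and the remainder 0.249%. The pair lay near opposite ends of the table: by the repeat share, SLC16A1 was at percentile 11.0 and LDHA at percentile 98.3 of the listed genes, whose median was 42.0%. The repeat took more than the fraction in 44.4% of listed genes. Without repeat 4 the repeat took 1.19% for SLC16A1 and 71.1% for LDHA, so the order of the shares within each gene was kept.

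**Figure D2:**
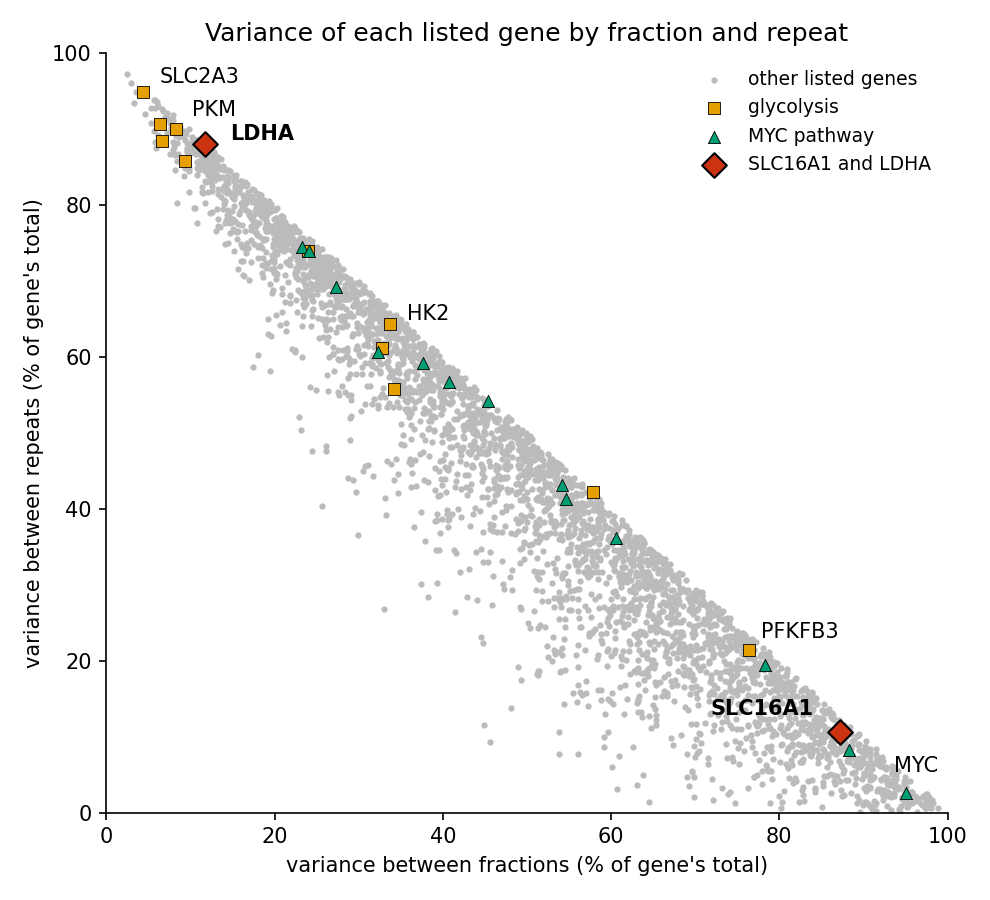
Percentage of each gene's variance between fractions (horizontal) and between repeats (vertical) for the 3666 listed genes in grey, with the listed genes of glycolysis and of the MYC pathway and the genes SLC16A1 and LDHA marked. LDHA sits at 11.8% and 88.0%, beside PKM, and SLC16A1 at 87.2% and 10.7%, toward MYC at 95.1% and 2.57%.

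Differences between repeats were not the basis on which the authors had listed genes, so they were tested. The listing may still favour genes with a small remainder, which also enters this test, so the test may not be independent of the listing. With the fraction in the model, LDHA differed between repeats (limma F = 208, adjusted p = 3.7e-05), and SLC16A1 did not pass (F = 2.38, adjusted p = 0.182). Of the listed genes, 57.6% passed this test. Whether the repeat difference of LDHA exceeds that of SLC16A1 was not tested directly. Averaged over both fractions, the highest and lowest repeats were 1.74 apart for LDHA and 0.17 apart for SLC16A1 on the log2 scale, at percentiles 96.4 and 5.92 of the listed genes. Within a fraction the ratio of the highest to the lowest repeat was 3.12 and 3.57 for LDHA, and 1.07 and 1.19 for SLC16A1, in PHLac-low and PHLac-high.

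The order of the LDHA levels was repeat 4, 1, 2 and 3 in both fractions. Repeat 4 was 0.88 ± 0.07 above repeat 1 in log2 units (SE, limma adjusted p = 0.000483). Repeat 1 was 0.52 ± 0.07 above repeat 2 (limma adjusted p = 0.0136), and repeat 2 was 0.33 ± 0.07 above repeat 3 (limma adjusted p = 0.0443). Thus all neighbours in the order, and all 6 pairs of repeats, passed in limma for LDHA. Each repeat has 1 library per fraction, so the test uses the remainder of the model and not a spread within a repeat. Among the listed genes the share that passed was 44.1%, 7.69% and 4.58% for these neighbours, and 14.0%, 51.5% and 50.2% for repeats 1 and 3, 2 and 4, and 3 and 4. For SLC16A1 the order was repeat 4, 3, 1 and 2, and 0 of 6 pairs passed in limma (adjusted p from 0.0818 to 0.991), while 2 pairs, those of repeat 4 with repeats 1 and 2, had an unadjusted p under 0.05.

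Per kilobase of the longest principal transcript (2416 bases for LDHA and 4374 for SLC16A1), the level of LDHA ranged from 5806 to 27063 normalised counts over the 8 libraries and that of SLC16A1 from 1536 to 2333. LDHA was thus the more abundant transcript in each library, by a ratio of 3.67 to 11.6. The ratio was 6.63, 4.58, 3.74 and 11.0 in PHLac-low and 7.19, 5.04, 3.67 and 11.6 in PHLac-high, in repeats 1 to 4. It moved with the repeat and little with the fraction. With the shortest principal transcripts it ranged from 6.15 to 19.4.

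Of 37 genes chosen for lactate and pyruvate handling, 9 were listed, of which 7 rose and 2 fell in PHLac-high with the repeat as a block, beside 58.7% and 41.2% of all listed genes. Their median log2 change was 0.37, against 0.25 over the table, and 0.15 against 0.02 with upper-quartile scaling, where no direction turned. The 9 include SLC16A1 and LDHA themselves. Without this pair 5 rose and 2 fell, and the median change was 0.29 with the authors' size factors. Between repeats 5 of the 9 passed, near the 57.6% of all listed genes, and 2 without repeat 4, beside 32.6%. Among transporters, SLC16A8, the gene of the lactate transporter MCT3, was rare, with 56.6, 60.3, 67.1 and 40.1 normalised counts (PHLac-low) and 25.7, 23.3, 51.3 and 19.9 (PHLac-high). It was lower in PHLac-high in every repeat, though the groups overlapped, and changed by -0.95 ± 0.24 on the log2 scale (SE, adjusted p = 0.00577 in limma). The transporter chaperones BSG and EMB and the other lactate dehydrogenase genes were not analysed here.

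Both subunits of the mitochondrial pyruvate carrier, which brings pyruvate into the matrix, rose. In repeats 1 to 4 MPC2 stood at 3562, 3229, 3044 and 5326 normalised counts (PHLac-low) and at 4534, 4292, 3774 and 7148 (PHLac-high). Its levels followed the LDHA order of repeats, and repeat 4 stood above the others in both fractions. MPC2 changed by 0.37 ± 0.05 (SE, log2 scale, limma adjusted p = 0.000556), and the repeat took 75.6% of its variance. MPC1, at 419 ± 69.4 and 573 ± 153 (SD, n = 4), changed by 0.43 ± 0.09 (SE, limma adjusted p = 0.00331).

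PDP1, a phosphatase that activates pyruvate dehydrogenase, had the largest change of this list with the authors' size factors. With upper-quartile scaling it was at 0.80, behind SLC16A8 at -1.17 and GPT at -0.85. It stood at 410, 564, 547 and 478 normalised counts (PHLac-low) and at 1062, 1234, 1366 and 579 (PHLac-high). The groups did not overlap, as in 36.7% of listed genes. The log2 change was 0.28 in repeat 4 against 1.13 to 1.37 in the others. With the authors' size factors PDP1 thus moved least in the repeat in which SLC16A1 and LDHA moved most. PDHX, a structural component of the pyruvate dehydrogenase complex, rose by 0.29 ± 0.07, and ME1, which makes pyruvate from malate, by 0.23 ± 0.07 (SE, limma adjusted p = 0.00341 and 0.00898). With upper-quartile scaling these changes were 0.07 for PDHX and 0.0059 for ME1. GPT, an alanine aminotransferase that yields pyruvate, changed by -0.63 ± 0.16 (SE, limma adjusted p = 0.00563).

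**Figure D3:**
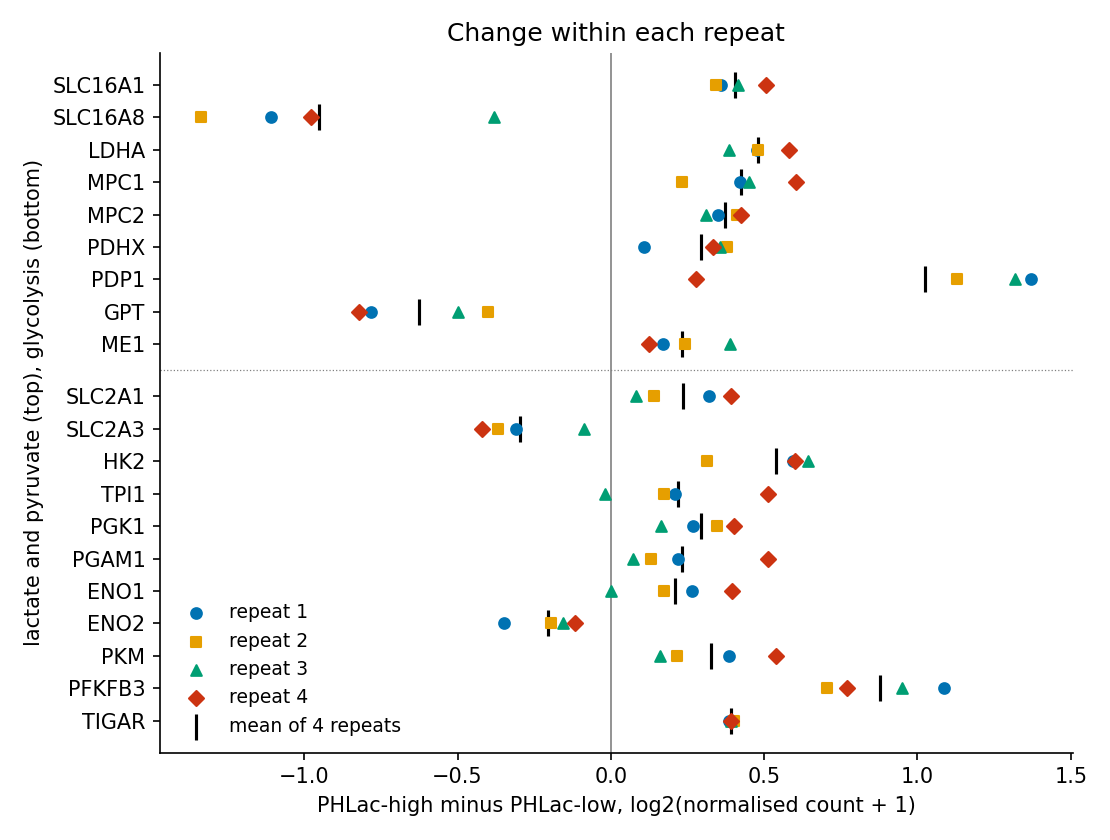
Change from PHLac-low to PHLac-high within each of the 4 repeats, on the log2(normalised count + 1) scale, for the 9 listed genes of lactate and pyruvate handling (top) and the 11 of glycolysis (bottom), with black ticks for the means. The points of SLC16A1 (0.34 to 0.50) and LDHA (0.38 to 0.58) lie close together on the positive side, and those of PDP1 spread from 0.28 to 1.37.

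Glycolysis feeds pyruvate to LDHA, and 11 of its 21 genes were listed. With the authors' size factors 9 rose and 2 fell, beside 58.7% and 41.2% of listed genes, while with upper-quartile scaling TPI1 and ENO1 turned to values just below 0, leaving 7 higher. All 11 passed the test between repeats, beside 57.6% of listed genes, and without repeat 4 this was 7 of 11 beside 32.6%. PKM, the pyruvate kinase that produces the substrate of LDHA, stood at 79221, 56059, 44167 and 102576 normalised counts (PHLac-low) and at 103565, 65123, 49334 and 149128 (PHLac-high). Like LDHA it was highest in repeat 4 and lowest in repeat 3 in both fractions. The repeat took 90.0% of the variance of PKM, 90.7% of ENO1 (enolase), 88.4% of TPI1 (triosephosphate isomerase), 85.8% of PGAM1 (phosphoglycerate mutase) and 73.9% of PGK1 (phosphoglycerate kinase).

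The repeat means of 4 glycolysis genes, PKM, TPI1, PGAM1 and ENO1, had the same order as those of LDHA, beside 9.63% of the listed genes. Pearson's r with LDHA over the 8 libraries was 0.976 for PKM, 0.970 for TPI1, 0.967 for ENO1, 0.962 for PGAM1 and 0.939 for PGK1. Without repeat 4 it was 0.964, 0.925, 0.945, 0.915 and 0.926 for PKM, TPI1, ENO1, PGAM1 and PGK1 over 6 libraries. These are descriptions: libraries of a repeat are paired and share whatever sets a repeat apart. The other 7 listed genes of glycolysis did not share the order. SLC2A3, the glucose transporter GLUT3, was lowest in repeat 4, at 2440 in PHLac-low and 1823 in PHLac-high, against 6574 to 7686 and 5090 to 6295 in the others, with 94.9% of its variance between repeats. HK2, a hexokinase that traps glucose in the cell, was highest in repeat 3. PFKFB3, which raises fructose 2,6-bisphosphate and so drives glycolysis, followed the fraction (76.4% of its variance). For TIGAR, which lowers that metabolite, the fraction took 57.8% and the repeat 42.2%, and the groups overlapped. The log2 changes of PFKFB3 and TIGAR were 0.88 ± 0.07 and 0.39 ± 0.06 (SE, limma adjusted p = 7.32e-05 and 0.000931).

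**Figure D4:**
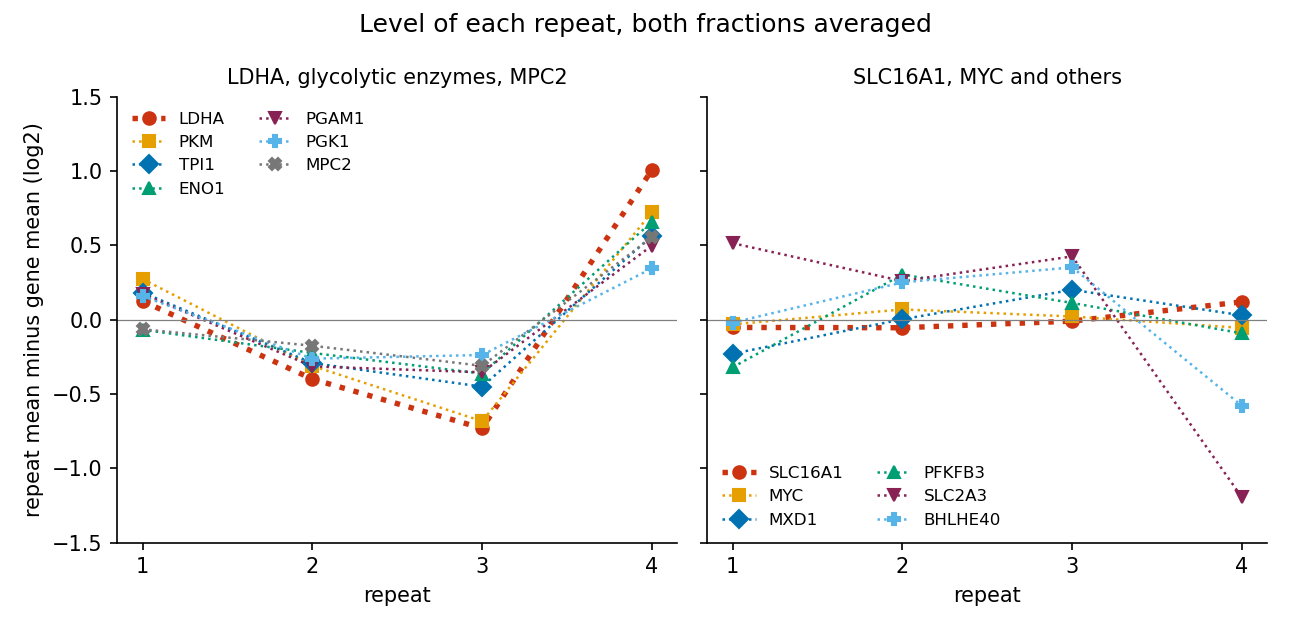
Repeat mean minus gene mean on the log2(normalised count + 1) scale, both fractions averaged, for LDHA with MPC2 and 5 glycolytic enzymes (left) and for SLC16A1 with 5 other genes (right). Dotted lines only join the points of a gene. LDHA spans 1.74 between repeats 3 and 4 and the other genes on the left are also lowest in repeat 2 or 3 and highest in repeat 4, while SLC16A1 spans 0.17.

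In the share of variance taken by the fraction, MYC itself resembled SLC16A1 and not LDHA. Its mean went from 19012 ± 1338 to 28485 ± 760 normalised counts (SD, n = 4), up by 0.59 ± 0.06 in log2 units (SE, adjusted p = 0.000113 in limma). The groups did not overlap, as in 36.7% of listed genes, and the fraction took 95.1% of its variance. Averaged over both fractions, repeat 4 was the lowest for MYC and the highest for SLC16A1. Of 22 genes of the MYC pathway 13 were listed. There were 12 that rose and 1 that fell, beside 58.7% and 41.2% of listed genes, and no direction turned with upper-quartile scaling. Between repeats 10 passed, beside 57.6% of listed genes, and 3 without repeat 4, beside 32.6%. MXD1, a partner of MAX that opposes MYC, rose by 1.01 ± 0.10, the ribosome biogenesis factor NOP16 by 0.71 ± 0.07 and the transferrin receptor TFRC by 0.84 ± 0.08 (SE, log2 scale, limma). Some known MYC targets varied with the repeat: the repeat took 74.4% of the variance of ODC1, the first enzyme of polyamine synthesis, 73.9% of the translation factor EIF4E, 69.2% of FBL, 59.2% of NOP56 and 56.7% of NCL, nucleolar proteins of ribosome assembly. CAD, an enzyme of pyrimidine synthesis, fell by 0.21 on the log2 scale, with 60.7% between repeats. CAD and EIF4E had the LDHA order of repeats, beside 9.63% of listed genes. Their r with LDHA was 0.517 and 0.973 over the 8 libraries, and -0.311 and 0.926 without repeat 4.

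Of 30 genes of the hypoxia inducible factor pathway 12 were listed, of which 8 rose and 4 fell, near the 58.7% and 41.2% of all listed genes. With upper-quartile scaling 7 were higher and 5 lower, as KDM3A turned. No listed member had the LDHA order of repeats, which only 9.63% of all listed genes had. The median r of the 12 with LDHA over the 8 libraries was -0.038, beside 0.010 for all listed genes. NDRG1, a stress-responsive target, rose by 0.89 ± 0.09 and the oxygen sensor EGLN1 by 0.47 ± 0.06, and ANGPTL4, a secreted inhibitor of lipoprotein lipase, by 0.51 ± 0.09 (SE, log2 scale, limma). ARNT, the partner of HIF-1 alpha, fell by 0.34 ± 0.06 and the repressor BHLHE40 by 0.59 ± 0.06. BHLHE40 ran opposite to LDHA over the libraries, with an r of -0.935, and of -0.873 without repeat 4. The repeat took 59.9% of the variance of PPFIA4, 59.1% of BHLHE40, 56.8% of ANGPTL4, 56.8% of the adenylate kinase AK4 and 41.2% of WSB1. Of the 12, 8 passed the test between repeats in limma, near the 57.6% of all listed genes. Without repeat 1 it was 5, beside 1892 of the 3666 listed genes, and without repeat 2 it was 4, beside 1721. Without repeat 3 it was 6, beside 1801, and without repeat 4 it was 6, beside 1196.

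The genes most like each member were found by Pearson's r of log2(normalised count + 1) over the 8 libraries, among 3304 other genes with a mean of at least 100 normalised counts. For SLC16A1 they included SLC35A2 (a Golgi transporter of UDP-galactose), VCPIP1 (a deubiquitinase), AKIRIN2 (a nuclear protein), EIF1AD and PRNP (the prion protein), with r from 0.981 to 0.987. Each of these 5 was higher in PHLac-high, by 0.40 to 1.03 on the log2 scale, or 0.18 to 0.81 with upper-quartile scaling, and had 80.9% to 94.8% of its variance between fractions. For LDHA they were PCNT (pericentrin of the centrosome), RAN (the GTPase of nuclear transport), CCT7 (a chaperonin subunit), TUBA1C (an alpha tubulin), PPIA (cyclophilin A) and UFD1L (a cofactor of the segregase VCP), with r from 0.990 to 0.995. All 6 had the LDHA order of repeats and 83.6% to 92.7% of their variance between repeats. The change of CCT7, PPIA and UFD1L turned to just below 0 with upper-quartile scaling. Both sets were picked by r over these same libraries, so their directions, repeat orders and variance shares largely follow from that choice. Without repeat 4, r was from 0.977 to 0.987 for the SLC16A1 genes and from 0.966 to 0.987 for the LDHA genes. SLC16A1 and LDHA themselves had an r of 0.560, which placed LDHA at rank 1717 by likeness to SLC16A1.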

How the data were processed

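The authors deposited 1 table, in which each library's signal is a read count per gene divided by a size factor, with a log2 fold change and an adjusted p-value of the authors. Per the submitters' processing notes, STAR, SAMtools, Subread, DESeq2 and build hg38 were used; versions and roles are not given in the sources used here. Columns were matched to samples by description. In all 8 libraries 100% of the values lay within 0.01 read of a multiple of a smallest step, from which size factors and reads were taken.

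limma 3.58.1 (R 4.3.3) was fitted to log2(normalised count + 1) over all 3666 genes with fraction and repeat as terms, a mean-variance trend, and Benjamini-Hochberg adjustment at 0.05. It was tested on simulated data. The series text states that libraries of a repeat are paired. Variance shares are sums of squares of that model. Named genes were the members, the listed genes of lactate and pyruvate handling, per other list up to 6 by repeat share and up to 4 by change, and the 6 most alike; some of these are not reported here. KDM3A is named because its direction turned. The members and lists were chosen with earlier results of these data known, and the tests of pairs of repeats after the values were seen. Alternatives were no block, leaving out each repeat, pseudocount 0.1, upper-quartile scaling, no trend and a mean of at least 100.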

Additional observations from a re-analysis of the deposited data

Results flagged for a closer look

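In 55 named genes, the levels in each fraction and the within-repeat changes gave 165 groups of 4 values, and the gap of the farthest value to its neighbour was compared with the range of the group. Chance picks out about 1 in 20 groups, or 8.25, and 12 were picked out, 9 of them in repeat 4. The groups share libraries and are not independent. For SLC16A1 in PHLac-low the gap was 0.857 of the range: repeat 4 had 7193 normalised counts against 6718 to 6785 in the others. This depends on the scaling. As a share of reads in the listed genes, repeat 4 was the lowest PHLac-low library, at 0.0598% against 0.0610% in each of the others. No group of LDHA values was picked out.

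Repeat 4 was also the far value in PHLac-low for ENO1 (0.846), FBL (0.854) and NCL (0.919), and in PHLac-high for FBL (0.831), NOP16 (0.886) and ODC1 (0.862), where it was the highest, and for NDRG1 (0.906), where it was the lowest at 1190 against 2204 to 2309. Among the within-repeat changes it was the far value for CCT7 (0.933), at 0.38 against 0.16 to 0.17. The change of HK2 stood apart in repeat 2 (0.848), at 0.31 against 0.59 to 0.64, that of NOP56 in repeat 3 (0.897), at 0.18 against 0.42 to 0.44, and that of PDHX in repeat 1 (0.838), at 0.11 against 0.33 to 0.38.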

How the results depend on the processing

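SLC16A1 and LDHA kept the direction of their change between fractions under all 9 alternatives, from 0.18 to 0.43 and from 0.26 to 0.51 on the log2 scale, the lowest with upper-quartile scaling. The change of SLC16A1 passed in limma in each (adjusted p from 0.000372 to 0.0185), and that of LDHA in all but the fit without the replicate block (0.48, adjusted p = 0.308). The repeat test called LDHA (adjusted p from 5.61e-06 to 0.00614) and not SLC16A1 (0.158 to 0.788) under all 8 alternatives run for it. Over all listed genes, 3663 passed between fractions, 1135 without the replicate block, 2360 with upper-quartile scaling, and from 3468 to 3627 when a repeat was left out. Between repeats 2112 passed, and from 1196 to 1892 with a repeat left out, the lowest without repeat 4. Leaving out a repeat gave variance shares by fraction of 83.6% to 98.2% for SLC16A1 and 9.25% to 28.6% for LDHA, and by repeat of 1.19% to 13.7% and 71.1% to 90.5%, and upper-quartile scaling gave 77.0% by fraction for SLC16A1 and 3.99% for LDHA. The difference between the changes of the 2 genes was 0.055 to 0.110. The cause of these shifts was not tested. Count tests were not run, as 4 libraries have fewer than 100 low values to set the step by. The lactate and pyruvate genes past the repeat test numbered 5, and from 2 (without repeat 4) to 6 (without repeat 1) with a repeat left out.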

Other observations

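Acid and base also cross the membrane by proton and bicarbonate transport, for which 21 genes were chosen. The chloride bicarbonate exchangers SLC4A3 and SLC26A6 changed by -0.63 ± 0.08 and -0.43 ± 0.08 (log2 scale, SE, limma with the repeat as a block, adjusted p = 0.000391 and 0.00138). The groups of each did not overlap, as in 36.7% of listed genes. SLC26A6 resembled SLC16A1 in that the fraction took 86.8% of its variance, in the opposite direction. Both directions were the same with upper-quartile scaling.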
